A study of Mus musculus with 4 samples.

Results

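Cytochrome P450 genes were followed in epigonadal white adipose tissue, a visceral fat depot next to the male reproductive tract. The mice were males and had been fasted. The family was taken as every gene whose symbol is Cyp, a number, a lower-case letter and a number, read from array probes that carry 1 gene symbol. This gave 89 genes of 22180 genes measured, in 15 families and 37 subfamilies, a subfamily being the genes that share the number and letter (Cyp2c, for example). Each gene was read from its probe with the highest mean over the 4 arrays.

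There were 4 groups with 1 array each. All mice carried floxed Irs1 and Irs2, the genes of the insulin receptor substrates. The Irs1/2-flox control had these floxed alleles and no Cre, and LDKO mice had them with Albumin-Cre, a recombinase under the albumin promoter, which is active in hepatocytes. The Irs1/2:FoxO1-flox control also carried floxed Foxo1, the gene of a transcription factor that insulin holds out of the nucleus, again without Cre, and LTKO mice had these alleles with Albumin-Cre. Both Cre lines were studied at 4 months of age. The labels give neither an age for the controls nor a statement on pooling, and the Cre is not directed to fat. With 1 array per group no difference has a replicate check, so none was tested and no error is given. A difference between 2 arrays takes in the genotype, the animal and the array, which cannot be told apart, and in whole tissue a lower number of cells of a type cannot be told apart from less RNA per cell.

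Cytochrome P450 enzymes are haem proteins that insert an oxygen atom into fatty acids, sterols, steroids, vitamins and foreign compounds. Those in the endoplasmic reticulum take electrons from NADPH through P450 oxidoreductase or cytochrome b5, and those in mitochondria through ferredoxin. The liver holds the largest set of them, and many liver members are low in fat.

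Values are log2 signals, so a difference of 1 is 2-fold. The brightness of a probe depends on its sequence, and levels of different genes are not compared. A gene was called where its difference reached 2-fold and the higher array of the comparison reached the level of the median gene, 5.15. Of the 89 genes 23 reached that level on at least 1 array and 66 did not. Over all genes 53.9% reached it, against 25.8% of the P450 genes. The adipocyte marker list had a mean log2 level between 10.74 and 10.98 on the 4 arrays, so the markers of the labelled tissue were present.

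Against their own controls, 3 P450 genes were called. Cyp2f2 was higher in LDKO and in LTKO, Cyp2d22 was lower in LDKO, and Cyp4a14 was higher in LTKO. In LDKO 2 of the 21 P450 genes past the filter were called, beside 1.20% of all genes past it. In LTKO it was 2 of 21, both higher, beside 1.78% of all genes in either direction and 1.73% higher. Between the 2 controls none of 19 was called, beside 0.770% of all genes. Counts this small move by a large share with a single gene, and nothing particular to the family follows from them. Without the filter the counts over all 89 genes were 2 in LDKO and 3 in LTKO, beside 0.690% and 1.16% of all genes. At 1.5-fold 6 of 21 genes were past the threshold in LDKO, beside 6.74% of all genes, and 3 of 21 in LTKO, beside 4.41%. Between the controls it was 2 of 19, beside 4.55%. At 3-fold 1 was in LDKO and 1 in LTKO, beside 0.260% and 0.668%.

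The median difference of the P450 genes past the filter was 0.12 in LDKO and −0.02 in LTKO, and that of all genes past it was −0.05 and −0.03. With the Irs1/2:FoxO1-flox control as the reference, the LDKO median was −0.11, so it has no stable sign. The median size of a difference, without sign, was 0.34 in LDKO for the P450 genes and 0.18 for all genes, and 0.14 and 0.13 in LTKO. Over all 89 genes without the filter, the LDKO sizes were 0.18 and 0.16.

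**Figure D1:**
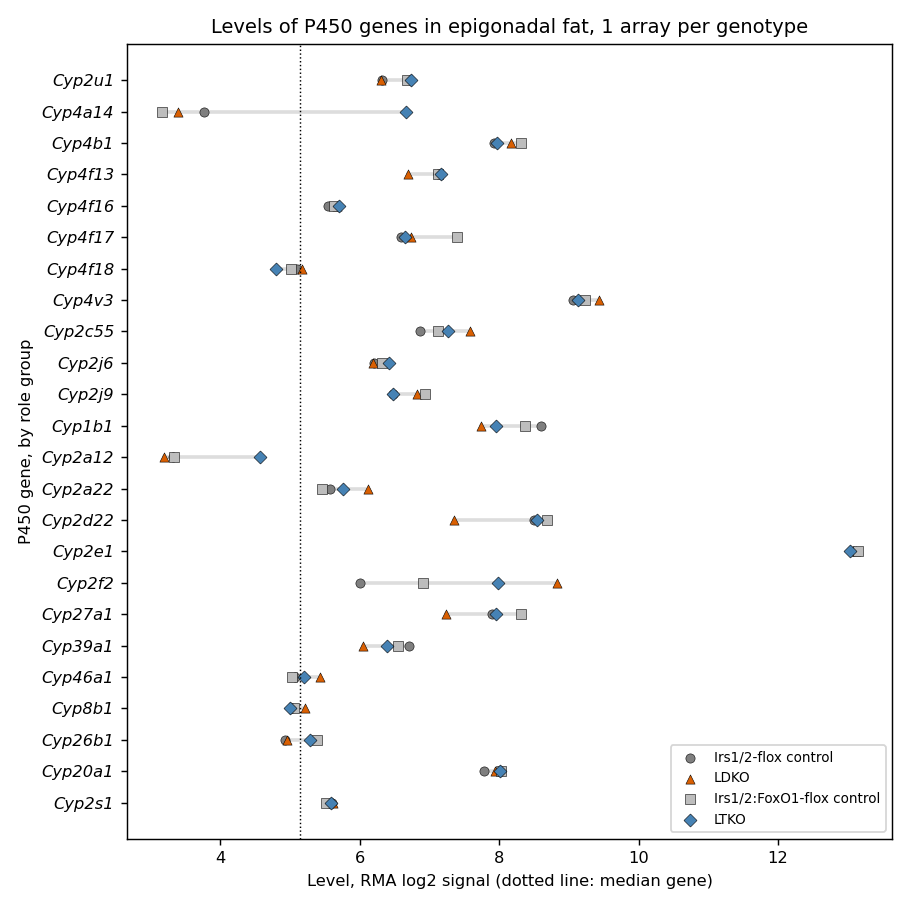
Level of each P450 gene that reached the median gene on any array, and of Cyp2a12, as RMA log2 signal on the horizontal axis, with 1 symbol per array a bar from the lowest to the highest array and a dotted line at the median gene. The symbols of most genes lie close together, while Cyp4a14 stands at 6.67 in LTKO alone, Cyp2d22 at 7.35 in LDKO alone, and Cyp2f2 is spread from 6.00 to 8.83.

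Cyp2f2 encodes the P450 that activates naphthalene in the club cells of mouse airways, and it is also made in liver. Its level was 6.00 (Irs1/2-flox control), 8.83 (LDKO), 6.91 (Irs1/2:FoxO1-flox control) and 7.98 (LTKO). Both Cre arrays were above both controls, with LDKO the highest. The difference was 2.84 (7.14-fold) in LDKO, the largest positive difference of 11533 genes, and 1.07 (2.10-fold) in LTKO, which was place 183. The controls themselves were 0.91 apart, place 45 of 11432 genes. Set against the other control, the difference was 1.93 in LDKO and 1.98 in LTKO, so the gap between LDKO and LTKO in the differences from their own controls came with a gap between the controls. LTKO was lower than LDKO by 0.85 when the arrays were compared directly, which did not reach 2-fold.

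A second Cyp2f2 probe was dimmer, with 4.52 (Irs1/2-flox control), 5.09 (LDKO), 4.38 (Irs1/2:FoxO1-flox control) and 4.81 (LTKO). Both Cre arrays were above both controls there too, and the differences from their own controls were 0.57 in LDKO and 0.42 in LTKO. The mean of both probes gave 1.70 in LDKO and 0.75 in LTKO, and the latter was no longer past 2-fold.

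A list of markers of the airway club cell, where Cyp2f2 is best known, was set beside it. The list also holds the surfactant protein genes Sftpa1, Sftpb, Sftpc and Sftpd, which are not particular to that cell. Of the 10 genes of the list, 1 was at least 2-fold higher in LDKO, beside 0.334% of all genes without the filter. With 1 gene past 2-fold, nothing particular to the list follows. It was the aldehyde dehydrogenase Aldh1a7, with 7.59 (Irs1/2-flox control), 9.65 (LDKO), 8.07 (Irs1/2:FoxO1-flox control) and 7.90 (LTKO). The defining secretoglobin Scgb1a1 was between 2.75 in LTKO and 3.46 in the Irs1/2-flox control, below the median gene on all 4 arrays, and its LDKO level was 3.05. The summed linear signal of the list was 352, 980, 422 and 393 in the order of the arrays above. Without Aldh1a7 the other 9 markers summed to 159, 176, 152 and 154, so 1 gene carried most of the LDKO sum, and the part of these markers in the Cyp2f2 difference was not tested.

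Cyp2f2 lies on chromosome 7 in a row of Cyp2 genes, between Cyp2a12 and Cyp2t4. Cyp2t4 differed by −0.36 in LDKO and −0.14 in LTKO, and Cyp2a12 by −0.12 in LDKO. Cyp2a12, a steroid hydroxylase of liver, was 3.32 (Irs1/2-flox control), 3.20 (LDKO), 3.34 (Irs1/2:FoxO1-flox control) and 4.57 (LTKO). LTKO exceeded its control 2.34-fold (1.23), yet its LTKO level stayed under the median gene, so it was not called. Adjacent genes thus differed in which array was high. The promoter windows of Cyp2f2 and Cyp2a12, from 250 bases before to 50 after the start site, are shown because these neighbours differed in LDKO. The sequences are RefSeq's for build GRCm38.p6, plus strand, chr7:27119705-27120004 for Cyp2f2 and chr7:27028840-27029139 for Cyp2a12, written 5′ to 3′ with matches to 3 searched motifs in capitals.
Cyp2f2: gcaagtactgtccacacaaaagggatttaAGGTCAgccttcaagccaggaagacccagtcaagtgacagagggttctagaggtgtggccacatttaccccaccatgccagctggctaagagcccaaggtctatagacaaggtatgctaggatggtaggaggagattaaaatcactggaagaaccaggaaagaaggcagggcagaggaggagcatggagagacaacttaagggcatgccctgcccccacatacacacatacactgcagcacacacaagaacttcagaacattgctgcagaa
Cyp2a12: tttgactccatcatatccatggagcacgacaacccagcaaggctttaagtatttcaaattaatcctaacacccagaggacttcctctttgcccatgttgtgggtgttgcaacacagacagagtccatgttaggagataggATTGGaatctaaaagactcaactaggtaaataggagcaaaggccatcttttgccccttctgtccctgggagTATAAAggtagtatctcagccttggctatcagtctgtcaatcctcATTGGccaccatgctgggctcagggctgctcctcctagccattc

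The motifs were AGGTCA, the half-site of many nuclear receptors, TATAAA, the TATA box, and CCAAT, each searched on both strands, and no match overlapped another. The Cyp2f2 window held AGGTCA, starting 221 bases before the start site, and neither of the others. The Cyp2a12 window held TATAAA 39 bases before the start site and CCAAT on the minus strand, written as ATTGG, 110 bases before the start site and again after it. Over 32851 windows of this length, 16.3% held AGGTCA, 13.6% TATAAA and 37.4% CCAAT. Windows were at hand for 69 of the 89 P450 genes, 77 windows in all with more than 1 for some genes, of which 27.3% held AGGTCA, 36.4% TATAAA and 46.8% CCAAT. A match is a description of the letters and no evidence of binding.

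Among the other Cyp2 genes of foreign compound metabolism, Cyp2d22 was the called gene of the Cyp2d subfamily, whose human counterpart metabolises many drugs. Its level was 8.50 (Irs1/2-flox control), 7.35 (LDKO), 8.68 (Irs1/2:FoxO1-flox control) and 8.54 (LTKO). The LDKO array was alone in being low, and the other 3 lay within 0.18 of each other. LDKO was 2.23-fold lower than its control (−1.16), place 41 of 11533 genes from the low end, and differed by −1.33 from the other control. LTKO differed by −0.14 from its control and was 2.29-fold higher than LDKO directly (1.19). Of the 11958 genes that reached the median gene on any array, 0.184% were likewise lowest in LDKO by at least 2-fold against each other array.

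Cyp2d22 lies on chromosome 15 beside Ndufa6, a subunit gene of respiratory complex I, and Cyp2d11, and its neighbours did not share the pattern. Ndufa6 differed by −0.05 in LDKO and Cyp2d11 by 0.07. The other 8 measured Cyp2d genes stayed under the median gene on all 4 arrays, and their LDKO differences ran from −0.11 to 0.40. Among them Cyp2d40 had the most negative LTKO difference, −0.82, with 4.09 in LTKO and 4.92 in its control.

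Cyp2e1, the P450 that oxidises ethanol and acetone, had 13.07 (Irs1/2-flox control), 13.13 (LDKO), 13.14 (Irs1/2:FoxO1-flox control) and 13.04 (LTKO). These values lie near the highest signal of each array, between 13.28 and 13.41, where arrays respond less to added RNA. They were within 0.11 of each other. Cyp2a22 was 5.57 and 5.46 in the controls, 6.12 in LDKO and 5.76 in LTKO, differences of 0.55 and 0.30. Cyp2a4, Cyp2a5 and Cyp2g1 were under the median gene.

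The fatty acid hydroxylases of families Cyp4 and Cyp2u oxidise the end of fatty acid chains, and 16 were measured. Cyp4a14, which PPAR-alpha induces in liver during fasting, was 3.76 (Irs1/2-flox control), 3.40 (LDKO), 3.16 (Irs1/2:FoxO1-flox control) and 6.67 (LTKO). The LTKO array was alone in being high, and the other 3 were well under the median gene, so the gene passed the filter only through LTKO and was not called under a filter on the mean of the 4 arrays. LTKO was 11.4-fold higher than its control (3.51), the second largest positive difference of 11533 genes, 2.91 above the other control, and 9.67-fold higher than LDKO (3.27). Differences against such dim arrays understate the size. Of the 11958 genes, 0.56% were highest in LTKO by at least 2-fold against each other array.

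Cyp4a14 stands in the Cyp4a cluster on chromosome 4, beside Cyp4a10 and Cyp4a30b. A probe assigned to both Cyp4a10 and Cyp4a31 was 4.15, 3.57, 3.53 and 6.30 in the order of the arrays above, 2.77 higher in LTKO than in its control. The gene-specific Cyp4a31 probe had 4.42 in that control and 5.03 in LTKO, a difference of 0.61. A probe assigned to Cyp4a32 and Cyp4a10 stayed between 2.07 and 2.32. Cyp4a29 differed by −0.07, and Cyp4b1, further along the cluster, by −0.35. Cyp4a genes are close copies, and a probe can take up RNA of a neighbour, so these values cannot be assigned to a single gene with certainty.

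The remaining fatty acid hydroxylases differed by less than 2-fold against either own control. Cyp4v3 was 9.07 (Irs1/2-flox control), 9.43 (LDKO), 9.23 (Irs1/2:FoxO1-flox control) and 9.13 (LTKO). Cyp4b1 was 7.93, 8.18, 8.31 and 7.96 in the same order. Their arrays lay within 0.36 and 0.39 of each other. Cyp4f17 was 7.39 in the Irs1/2:FoxO1-flox control and between 6.59 and 6.73 elsewhere, so its LTKO difference of −0.75 went with a control that was 0.80 above the other control. Cyp4f13 differed by −0.43 in LDKO and 0.04 in LTKO.

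**Figure D2:**
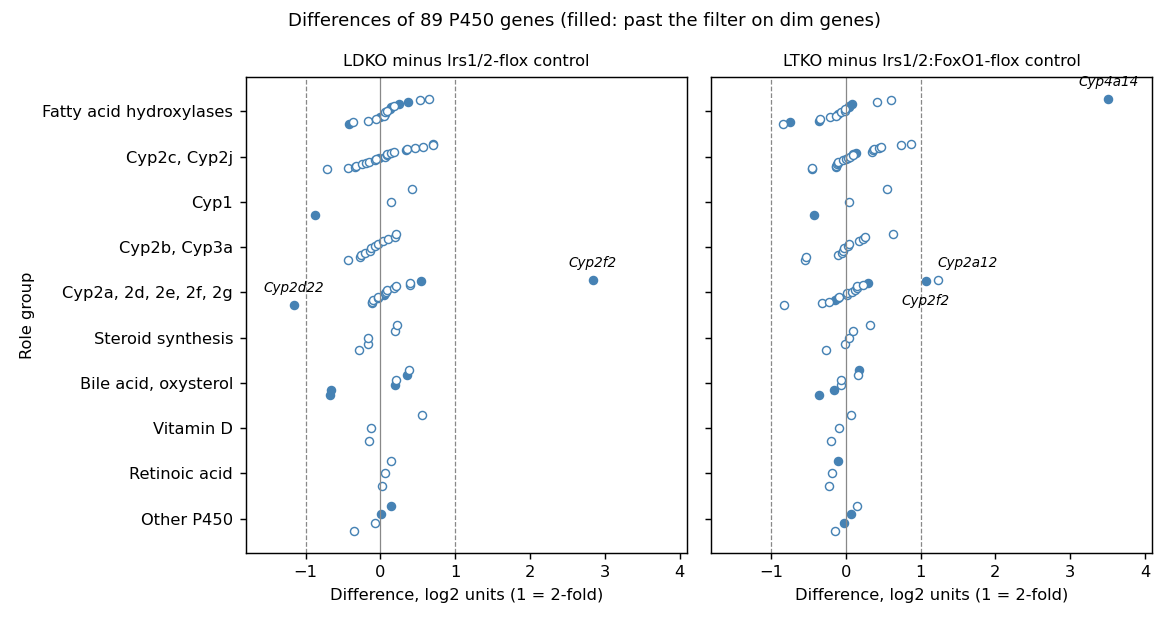
Difference of each of the 89 P450 genes on the horizontal axis (log2 units) by role group, for LDKO on the left and LTKO on the right, each minus its own control. Filled points passed the filter on dim genes, open points did not, dashed lines mark 2-fold, and genes past them are named: Cyp2f2 (2.84) and Cyp2d22 (−1.16) in LDKO, Cyp4a14 (3.51), Cyp2a12 (1.23) and Cyp2f2 (1.07) in LTKO.

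The Cyp2c and Cyp2j genes, many of which turn arachidonic acid into signalling epoxides, numbered 21, of which 3 reached the median gene. Cyp2c55 was 6.87 (Irs1/2-flox control), 7.58 (LDKO), 7.13 (Irs1/2:FoxO1-flox control) and 7.27 (LTKO). LDKO was the highest, 0.70 above its control, and LTKO was 0.14 above its own. Its other probe was between 2.37 and 2.93, with 0.33 and 0.35, so the probes shared a sign while their levels were far apart. Cyp2j9 was 6.47, 6.82, 6.94 and 6.48, a difference of 0.34 in LDKO and −0.46 in LTKO with a gap of 0.47 between the controls. Cyp2j6 lay between 6.19 and 6.41. Of the 14 Cyp2c genes the differences ran from −0.44 to 0.70 in LDKO and from −0.46 to 0.47 in LTKO, and of the 7 Cyp2j genes from −0.71 to 0.56 and from −0.46 to 0.87.

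The Cyp1 enzymes, induced through the aryl hydrocarbon receptor, oxidise aromatic hydrocarbons and oestrogens. Cyp1b1 was 8.61 (Irs1/2-flox control), 7.74 (LDKO), 8.37 (Irs1/2:FoxO1-flox control) and 7.95 (LTKO). Both Cre arrays were below both controls. The differences were −0.87 in LDKO and −0.42 in LTKO, under 2-fold in both, and the controls were 0.23 apart. Cyp1a1 was under the median gene on all arrays, and Cyp1a2 reached 4.96 in LTKO, 0.55 above its control. Stromal progenitor markers also had lower medians, −0.44 in LDKO and −0.16 in LTKO, with 1 of 9 higher in each line. The summed signal of that list was 9643, 7761, 9096 and 8428 in the order of the arrays above. Macrophage markers had a median of −0.32 in LDKO and −0.32 in LTKO, with 2 and 1 of 13 higher. Mesothelium markers had −0.72 in LDKO, with 0 of 10 higher, and −0.18 in LTKO, and skeletal muscle markers −0.72 and −0.10. The controls differed in these lists too. From the Irs1/2-flox control to the Irs1/2:FoxO1-flox control the median was −0.74 for mesothelium and −0.48 for skeletal muscle markers, with none higher. It was −0.21 for macrophage and 0.16 for stromal progenitor markers. Not all lists were lower in LDKO. Adipocyte markers had a median of 0.08 there, with 10 of 12 higher, and endothelium markers 0.05, with 6 of 8 higher. In LTKO these 2 lists had −0.12, with 5 of 12 higher, and 0.00, with 4 of 8 higher. Of all genes without the filter, 50.1% were higher in LDKO and 45.6% in LTKO. The part of any of these lists in the Cyp1b1 values was not tested.

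None of the 12 Cyp2b and Cyp3a genes, inducible enzymes of drug metabolism, reached the median gene. Cyp2b10 was highest at 4.68 in the Irs1/2:FoxO1-flox control, and Cyp3a11 lay between 3.94 and 4.24. Their differences ran from −0.44 to 0.21 in LDKO and from −0.55 to 0.63 in LTKO.

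Of 6 genes of bile acid and oxysterol metabolism, 4 reached the median gene. Cyp27a1, the mitochondrial sterol hydroxylase that starts the alternative route of bile acid synthesis, was 7.90 (Irs1/2-flox control), 7.23 (LDKO), 8.32 (Irs1/2:FoxO1-flox control) and 7.96 (LTKO). LDKO was the lowest. The difference was −0.66 against its own control and −1.08 against the other, and only the latter reached 2-fold. LTKO was 0.36 below its control and 0.07 above the other, so its direction depended on the reference. Cyp39a1, an oxysterol hydroxylase, was 6.71, 6.04, 6.55 and 6.40, with −0.67 in LDKO and −0.15 in LTKO. Cyp46a1, which hydroxylates cholesterol in brain, and Cyp8b1, which sets the share of cholic acid, stayed within 0.40 and 0.22 over the arrays. Cyp7a1, the rate-limiting enzyme of bile acid synthesis in liver, lay between 2.89 and 3.12, and the oxysterol hydroxylase Cyp7b1 between 4.47 and 4.85.

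Steroid hormone synthesis genes were dim. All 5 stayed under the median gene. Cyp11a1, which cuts the cholesterol side chain, lay between 4.05 and 4.34, and Cyp17a1, needed for androgens, between 3.97 and 4.30. Cyp11b1, Cyp11b2 and Cyp21a1, enzymes of corticosteroid synthesis, were at most 3.50. Markers of steroid-making cells had none of 8 at least 2-fold apart in LDKO or LTKO, beside 0.690% and 1.16% of all genes without the filter. At such shares this says little about a list of this size. Insl3, Lhcgr and Akr1b7 of that list were not matched to a measured gene.

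Vitamin D and retinoic acid enzymes differed little. Cyp2r1, a vitamin D hydroxylase, was 4.49 (Irs1/2-flox control), 5.05 (LDKO), 4.69 (Irs1/2:FoxO1-flox control) and 4.75 (LTKO). Cyp24a1, which inactivates vitamin D, lay between 4.60 and 4.89, and Cyp27b1, which activates it, between 4.32 and 4.67. Cyp26b1, which clears retinoic acid, was 4.93 (Irs1/2-flox control), 4.96 (LDKO), 5.39 (Irs1/2:FoxO1-flox control) and 5.28 (LTKO). The controls were 0.45 apart and the Cre differences were 0.02 and −0.11, at levels around that of the median gene. Cyp26a1 and Cyp26c1 were under the median gene. Cyp20a1, an orphan P450, lay between 7.79 and 8.03, and Cyp2s1 between 5.52 and 5.61.

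The 66 genes under the median gene on every array had levels from 1.93 to 5.10. For 64 of them the highest and lowest array were less than 1 apart, the exceptions being Cyp2a12 and Cyp2c39, which was 3.96 in the Irs1/2-flox control and 2.94 in LTKO. At this signal a true difference would be compressed, and a level near background is a bound and not a measured absence.

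Both Cre arrays lay above both controls for 5 of the 23 brighter genes, beside 11.3% of all genes that reached the median gene, and below them for 2, beside 19.6%. The higher genes were Cyp2f2, where the gap between the groups was 1.07, and Cyp2a22, Cyp2c55, Cyp46a1 and Cyp4f16 with gaps of at most 0.19. The lower genes were Cyp1b1, with a gap of 0.42, and Cyp39a1, with 0.15. The LDKO and LTKO differences of the 19 P450 genes that passed both filters had a Pearson r of 0.70 and a Spearman rho of 0.47. Without Cyp2f2 these were 0.30 and 0.38, and over all 11108 genes r was −0.04. The points are genes of the same 4 arrays and not replicates.

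**Figure D3:**
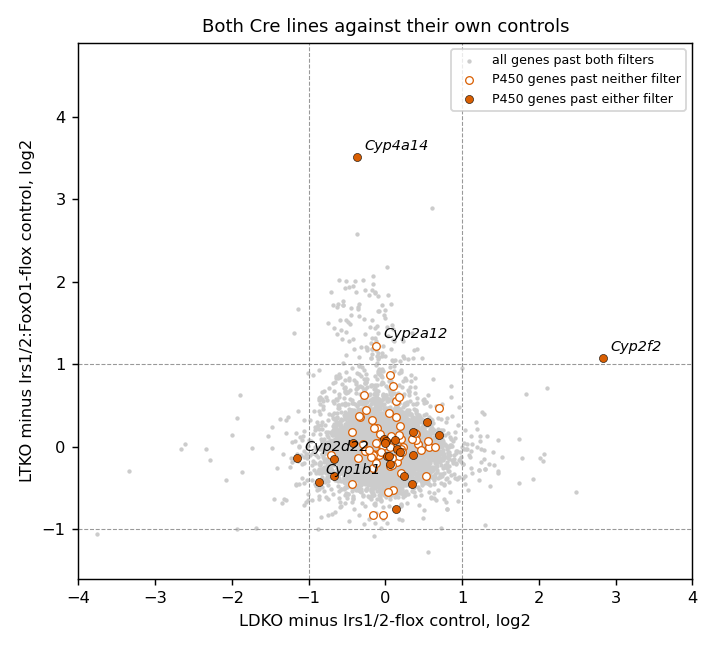
LDKO difference on the horizontal axis against LTKO difference on the vertical axis, each minus its own control in log2 units, with all genes past both filters in grey, P450 genes past either filter filled and the others open, and dashed lines at 2-fold. Cyp2f2 lies far right (2.84 and 1.07), Cyp4a14 at the top (−0.36 and 3.51), and Cyp2d22 at the left (−1.16 and −0.14).

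The difference of the LTKO and LDKO effects was at least 2-fold for 3 of 23 P450 genes, beside 4.01% of all genes. It was 3.88 for Cyp4a14, 1.02 for Cyp2d22 and −1.76 for Cyp2f2. By the mean of both its probes, the Cyp2f2 value was −0.95 and no longer past 2-fold. The Cyp2f2 gap of 0.91 between the controls also enters this value. Set against the other control, the LDKO and LTKO differences of Cyp2f2 were nearly equal, as given above. With LTKO set directly against LDKO, 2 of 23 were called, Cyp4a14 and Cyp2d22, beside 2.11% of all genes. At 1.5-fold the direct comparison had 4 beside 7.98% and the difference of effects 6 beside 13.0%, and at 3-fold the direct comparison had 1 beside 0.557%. The Cyp2d22 value of 1.02 was no longer past 2-fold after quantile normalization of the 4 arrays again or removal of a loess curve.

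Liver and epididymis genes were high on the LTKO array, on which Cyp4a14 and Cyp2a12 were also high. Against its control, 7 of 26 hepatocyte markers were at least 2-fold higher on it and none was 2-fold lower, beside 1.13% of all genes higher and 0.0361% lower without the filter. The summed signal of the list was 1202 (Irs1/2-flox control), 1592 (LDKO), 1186 (Irs1/2:FoxO1-flox control) and 2458 (LTKO). Albumin (Alb) was 7.10, 7.70, 6.93 and 9.82. Of 16 epididymis markers, 7 were at least 2-fold higher, led by the glutathione peroxidase Gpx5 at 8.28 in LTKO and at most 3.32 elsewhere, and the summed signal was 233, 242, 229 and 878. Of 13 spermatid markers, 9 were at least 2-fold higher. No value is written as 0 by the method used.

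Beside this, 18 P450 genes known for high levels in liver were read, a list chosen after the values were seen. It holds the 3 genes already seen to be at least 2-fold higher in LTKO, Cyp2a12, Cyp2f2 and Cyp4a14, so its count supports nothing. In LTKO 10 of the 18 were above their control, as were 45.6% of all genes, and the median was 0.06, against −0.02 over all genes. No other gene of the list was 2-fold higher in LTKO. The next largest differences were 0.55 for Cyp1a2, 0.44 for Cyp2c50 and 0.36 for Cyp2c29 (0.13 by its other probe). Cyp3a11 followed with 0.25 and Cyp2d26 with 0.23. All of these genes were under the median gene, where a difference is compressed. The rest ran from −0.225 for Cyp2d10 to 0.08 for Cyp2d9, with Cyp8b1 at −0.06. In LDKO, where Cyp2f2 was highest, none of the 26 hepatocyte markers and none of the 16 epididymis markers was at least 2-fold higher. Over all genes without the filter 0.334% were, so this lack says little about lists of this size. In LDKO 15 of the 26 hepatocyte markers were above their control, with a median of 0.05, and Alb was 0.60 higher. The part of liver or epididymis RNA in the LTKO and LDKO values was not tested.

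**Figure D4:**
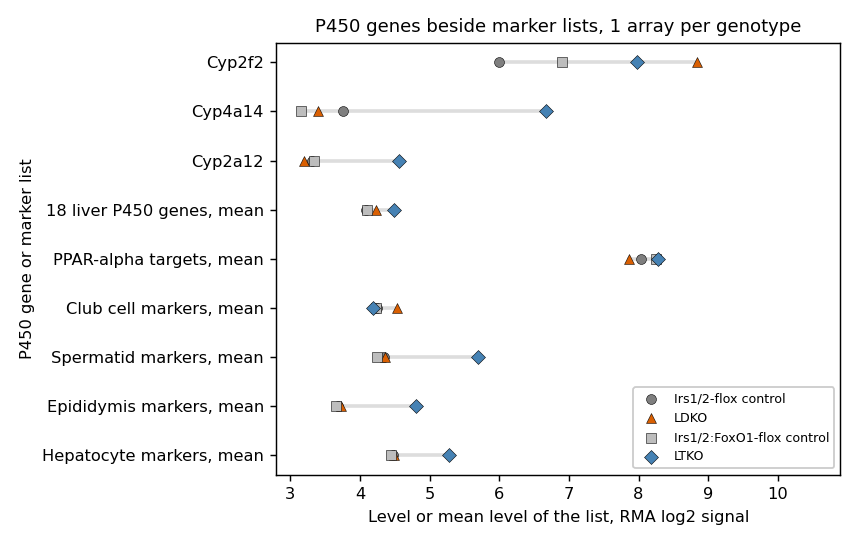
Level of Cyp2f2, Cyp4a14 and Cyp2a12 and mean level of 6 gene lists on each array (RMA log2 signal on the horizontal axis, 1 symbol per array, bars from the lowest to the highest array). Cyp4a14, Cyp2a12 and the hepatocyte, epididymis and spermatid lists are highest in LTKO, while Cyp2f2 and the club cell list, through Aldh1a7 for the most part, are highest in LDKO.

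Other targets of PPAR-alpha were read as the pathway around Cyp4a14. Of 20 measured targets that are not P450 genes, none was called higher in LTKO, beside 1.73% of all genes past the filter. Their median was 0.00, with Fabp1, the liver fatty acid-binding protein, 1.57 above its control at 4.45, under the median gene. Ppara itself was 5.57 (Irs1/2-flox control), 5.60 (LDKO), 5.94 (Irs1/2:FoxO1-flox control) and 5.82 (LTKO). In LDKO 2 targets were called lower, beside 0.624% of all genes past the filter. They were the pantetheinase Vnn1 (−2.61) and the acyl-CoA thioesterase Acot4 (−1.12), and their LTKO differences were 0.03 and 0.00. Vnn1 was 9.96, 7.34, 10.05 and 10.08, low in LDKO alone as Cyp2d22 was, and as were 0.184% of the genes that reached the median gene. A link between them was not tested.

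Redox partners, haem synthesis genes and receptors that control P450 genes were set beside the family. Of 38 measured genes of this list, none was called in LDKO, in LTKO, between the controls or in LTKO directly against LDKO. Over all genes past the filter the shares called were 1.20%, 1.78%, 0.770% and 2.11% in that order. At such shares the lack of a call says little about a list of this size. Cyb5a, the microsomal cytochrome b5, lay between 8.48 and 8.70, while P450 oxidoreductase was not analysed here. Cyb5b, its mitochondrial form, was 9.11, 9.88, 9.18 and 9.33, so LDKO was 0.78 above its control. Ephx2, the soluble epoxide hydrolase that breaks down the epoxides made by Cyp2c and Cyp2j enzymes, was 10.91 (Irs1/2-flox control), 11.90 (LDKO), 11.64 (Irs1/2:FoxO1-flox control) and 11.46 (LTKO). It was 0.98 higher in LDKO, just short of 2-fold, while the controls were 0.73 apart and LTKO was 0.18 below its own. Alad, of haem synthesis, differed by 0.67 between LTKO and LDKO, and the vitamin D receptor gene Vdr by 0.64 between LTKO and its control.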

How the data were processed

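Biotin-labelled DNA made from total RNA was read on Affymetrix arrays for whole transcripts, as the labels' protocols state. The authors made the deposited log2 signals with Affymetrix Expression Console and RMA (a background correction, a quantile normalization and a probe summary); this comes from the submitters' processing notes. Their versions, the build and which arrays were normalized together were not given in the sources used here. RMA removes a shift shared by all genes and compresses dim signals.

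Of 41345 probes, 23521 carry 1 gene symbol, 1814 several, and 16010 have no name here. By gene identifier, 23328 of the first were matched to RefSeq's GRCm38.p6 table, used for names, neighbours and promoter windows. The 89 genes had 93 probes.

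Differences of log2 values were called at 2-fold, with no test. Alternatives covered threshold, filter, probe summary, normalization, reference array and probes with several symbols; a filter on the mean of the 4 arrays was added after the data were seen. The steps were tested on simulated data. The rule for named genes took called genes, the 2 brightest of each role group, genes whose probes differ in the sign of a called difference, Por, Cyb5a, the 4 partner genes with the largest differences, and markers that give a list's range; further genes were named after their values were seen. The P450 family and all lists were chosen with earlier results of these data known. The software was Python 3.11.15, numpy 2.4.6, pandas 2.3.3, statsmodels 0.14.6, and matplotlib 3.10.9.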

Additional observations from a re-analysis of the deposited data

Results flagged for a closer look

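A probe assigned to both Cyp4a10 and Cyp4a31, outside the gene set because it carries several symbols, was 6.30 in LTKO and at most 4.15 on the other arrays. It was listed because its LTKO signal lay at least 2-fold above both controls in data the main comparisons did not use. Such probes entered the comparisons only as an alternative, and the values of this probe are also given with Cyp4a14 above.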

How the results depend on the processing

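No paired analysis was possible because each group has 1 array, and for the same reason no array could be left out of its group. At 1.5-fold the number of P450 genes called was 6 in LDKO, 2 between the controls, 4 in LTKO directly against LDKO and 6 for the difference of effects. At 3-fold it was 1 in LDKO, 1 in LTKO and 1 in the direct comparison. In LTKO the mean of all probes left 1 gene, Cyp4a14, and the filter on the mean of the 4 arrays, added after the data were seen, left 1, Cyp2f2; in the direct comparison that filter left 1, Cyp2d22. All other alternatives gave counts within 1.5 times of those reported. For the called genes and the 2 brightest of each role group, 792 values were read under alternatives. Of these, none that was called changed sign, 6 lost their call and 8 gained one. Other genes named in the text are outside this count. Among them Cyp4f17 was past 1.5-fold in LTKO and between the controls. Without the filter, Cyp2a12 was past 2-fold in LTKO and in LTKO directly against LDKO. The difference of effects is outside this count, and there Cyp2d22 and Cyp2f2 lost their calls under alternatives, as given above. Cyp4a14 lost its call in LTKO and in the direct comparison through the filter alone, with its differences still 3.51 and 3.27. The number of arrays limits every value, and 66 of the 89 genes lay under the median gene.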

Other observations

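Genes of the family whose symbols lie outside the naming pattern were read as well. Cyp51, the sterol demethylase of cholesterol synthesis, was 6.66 (Irs1/2-flox control), 6.38 (LDKO), 6.54 (Irs1/2:FoxO1-flox control) and 6.56 (LTKO). Cyp4a12b, a fatty acid hydroxylase of the same cluster as Cyp4a14, was 5.95, 6.29, 5.87 and 5.82, and was not high in LTKO. Cyp4a12a lay between 3.72 and 3.93, and Cyp2ab1 between 3.23 and 3.86.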
